A study of Mus musculus with 4 samples.

Results

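Migrating dendritic cells (DCs) rebuild their cell cortex when they leave the skin, and 7 genes of that machinery are described here: Fscn1, Cacnb3, Marcks, Marcksl1, Mylk, Myo10 and Evl. They were chosen by name, with earlier results of these data known, and are 7 of the 22631 gene rows in both expression matrices. Their levels were read in mouse DCs sorted as migratory DCs (B220- CD11cint MHCIIhi) from ear-draining lymph nodes. All mice carried 1 reporter allele of Tnfsf4, the gene of OX40 ligand (genotype Tnfsf4KI/+), so that blue fluorescent protein (BFP) marks cells that use this gene, and every group shared that allele. Ears were left untreated, or were treated on days 0, 2 and 4 with MC903, a vitamin D3 analogue used to induce skin inflammation that resembles atopic dermatitis, and nodes were taken on day 5. For each treatment 5000 BFP+ and 7000 BFP- cells were tagged with separate hashtag antibodies against CD45 and MHC class I and loaded in 1 capture, so each of the 4 populations is 1 pool. The age of the mice and the number of mice in a pool are not given in the sources used here.

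A DC that has taken up antigen in the skin turns on the chemokine receptor CCR7, reorganises its actin and crawls to the draining node through lymphatic vessels. Actin filaments are bundled into stiff protrusions by some proteins, lengthened at their tips by others, pulled together by myosin motors, and tied to the membrane by lipid-binding proteins. Fscn1 encodes fascin, which bundles actin filaments and is a classical marker of mature DCs. Cacnb3 encodes a cytoplasmic beta subunit of voltage-gated calcium channels and is known as a gene of migratory DCs. Marcks and its paralogue Marcksl1 encode substrates of protein kinase C that bind actin and the membrane lipid PIP2. Mylk encodes myosin light chain kinase, which switches on myosin II contraction and is best known in smooth muscle. Myo10 encodes the motor found at the tips of filopodia, and Evl an Ena/VASP protein that lengthens actin filaments and is also used by lymphocytes.

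On GRCm38, the build named in the submitters' processing notes, Fscn1 lies at chr5:142960343-142973185 on the plus strand, Cacnb3 at chr15:98630840-98644529 (plus) and Marcks at chr10:37133375-37138920 (minus). Marcksl1 lies at chr4:129513581-129515985, Mylk at chr16:34745210-35002420, Myo10 at chr15:25622525-25813673 and Evl at chr12:108554720-108688516, all on the plus strand. No annotated gene overlaps Fscn1, Cacnb3, Marcks or Marcksl1. Of the genes that overlap Mylk, Myo10 or Evl, only Degs2, on the other strand within Evl, is in the matrices; it was at 0.896 CPM in 1 pool and at 0 in the other 3. The counts come from the 3′ ends of transcripts and do not tell the starts or isoforms of Mylk, Evl or the other members apart.

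The bases just before the start are shown for the steadily high Fscn1 and Marcksl1 and for Mylk and Evl, the members furthest apart between the pools of the captures, so that their start regions can be compared. They are from RefSeq on build GRCm38.p6, read 5′ to 3′ on the plus strand and printed up to the first annotated exon base; the table matched 6 of the 7 members, with 9 starts, and did not match Marcks. Capitals mark motif letters as they stand on this strand. In Fscn1 they mark TGACGTCA, the cyclic AMP response element, and TATAAA, the core of a TATA box. In Marcksl1 and Mylk they mark CCAAT read on the other strand. In Evl they mark the GC box, GGGCGG, also read on the other strand. The Fscn1 stretch is chr5:142960105-142960342, that of Marcksl1 chr4:129513331-129513580, that of Mylk chr16:34784700-34784920, before a start inside the gene, and that of Evl chr12:108554470-108554719, before the first of its 2 starts.
Fscn1: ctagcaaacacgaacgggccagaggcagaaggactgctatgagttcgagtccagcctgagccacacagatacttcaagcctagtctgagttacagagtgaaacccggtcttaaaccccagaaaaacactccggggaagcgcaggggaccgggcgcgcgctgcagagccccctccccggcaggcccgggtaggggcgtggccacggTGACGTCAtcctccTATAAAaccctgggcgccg
Marcksl1: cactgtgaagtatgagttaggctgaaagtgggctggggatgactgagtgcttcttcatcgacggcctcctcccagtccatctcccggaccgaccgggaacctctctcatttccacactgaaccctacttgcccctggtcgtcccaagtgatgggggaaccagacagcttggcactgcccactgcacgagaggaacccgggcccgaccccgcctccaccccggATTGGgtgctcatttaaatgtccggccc
Mylk: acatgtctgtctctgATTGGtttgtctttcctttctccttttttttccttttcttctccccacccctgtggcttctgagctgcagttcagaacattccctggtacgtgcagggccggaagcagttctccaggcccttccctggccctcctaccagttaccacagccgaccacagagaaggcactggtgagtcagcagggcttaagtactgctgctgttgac
Evl: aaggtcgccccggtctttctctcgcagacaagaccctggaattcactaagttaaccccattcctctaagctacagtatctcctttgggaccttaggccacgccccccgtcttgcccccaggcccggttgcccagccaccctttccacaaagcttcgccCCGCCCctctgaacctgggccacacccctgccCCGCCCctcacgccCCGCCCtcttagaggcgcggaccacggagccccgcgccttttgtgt
Counted from the RefSeq start, with -1 the base before it, the TGACGTCA of Fscn1 stands at -45 to -38 and its TATAAA at -31 to -26. The CCAAT box of Marcksl1 stands at -28 to -24 and that of Mylk at -235 to -231, and Evl holds GC boxes at -92 to -87, -60 to -55 and -46 to -41. Among 32851 RefSeq promoters of this build, searched over the same 250 bases on both strands, TGACGTCA is in 1.55%, TATAAA in 12.4%, CCAAT in 33.8% and GGGCGG in 32.7%. The NF-kB consensus (in 7.25% of promoters) and the CArG box (1.47%) were not found in any of the 9 windows. These are matches of letters, not measured binding sites.

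The gene counts are unique molecular identifiers (UMIs) from 10x Genomics 3′ libraries, with the samples of the series being an expression and a hashtag library for each capture. After removal of barcodes with under 500 genes or over 10% mitochondrial UMIs, 8422 of 9520 untreated and 5636 of 6316 MC903 barcodes remained, with medians of 2622 and 9219 UMIs. A gate on marker genes then left 6508 and 4010 DCs (77.3% and 71.1%), of which the hashtags placed 461 untreated BFP+, 4418 untreated BFP-, 1207 MC903 BFP+ and 2709 MC903 BFP-. The hashtags were clean in the MC903 capture, where 2.34% of DCs carried a mixture, and poor in the untreated one, where 25.0% did, and other ways of calling them gave other untreated pools (below). The BFP transcript was at 83.2 and 6.57 CPM (UMIs of a gene scaled to a total of 1000000) in the untreated BFP+ and BFP- pools and at 103 and 10.1 CPM in those of MC903, in the direction of the labels. Treatment, capture, library and sequencing lane are 1 split of the cells and cannot be told apart. With 1 pool per population no test between conditions is possible, and all intervals below are 95% intervals for counting error only, which do not cover the spread between mice.

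The gene of fascin, the bundler, was moderately higher in the MC903 capture. Fscn1 was at 1905 CPM in the untreated BFP+ pool, 1972 CPM in the untreated BFP- pool, 2247 CPM in MC903 BFP+ and 2547 CPM in MC903 BFP-. Both MC903 pools were above both untreated pools, and the BFP- pool was the higher one in each capture. On the log2 scale the MC903 pool was above the untreated one by 0.24 (0.20 to 0.28) among BFP+ and 0.37 (0.35 to 0.39) among BFP- DCs, while BFP+ minus BFP- was -0.05 (-0.09 to -0.01) untreated and -0.18 (-0.20 to -0.16) under MC903. All 4 differences are under 1.5-fold, the size used here to call genes apart, in the direction given, with at least 20 CPM in the higher pool.

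Cacnb3, the calcium channel subunit, spanned 718 to 878 CPM over the pools. The untreated pools stood at 787 CPM (BFP+) and 718 CPM (BFP-), the MC903 pools at 815 CPM (BFP+) and 878 CPM (BFP-). The order of the reporter populations thus turned between the captures, with the BFP+ pool higher untreated (log2 difference 0.13, 0.07 to 0.20) and lower under MC903 (-0.11, -0.14 to -0.07). The MC903 pool was above the untreated one by 0.05 (-0.01 to 0.12) among BFP+ and by 0.29 (0.26 to 0.32) among BFP- DCs. None of these differences reached 1.5-fold.

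The MARCKS pair differed little between pools. Marcks was at 2166 CPM in untreated BFP+, 2121 CPM in untreated BFP-, 1853 CPM in MC903 BFP+ and 1944 CPM in MC903 BFP- DCs. Marcksl1 was at 1174, 1194, 1188 and 1268 CPM in the same order. Marcks stood slightly lower in the MC903 capture, by -0.23 (-0.27 to -0.19) on the log2 scale among BFP+ and -0.13 (-0.14 to -0.11) among BFP- DCs. For Marcksl1 the same differences were 0.02 (-0.04 to 0.07) and 0.09 (0.06 to 0.11), and its reporter differences were -0.02 (-0.08 to 0.03) untreated and -0.09 (-0.12 to -0.07) under MC903. Under scaling by the trimmed mean of M values (TMM), the untreated reporter difference of Marcksl1 is 0.02, with the opposite sign, and over 13 other settings its treatment difference ranged from -0.01 to 0.11 among BFP+ and from -0.05 to 0.20 among BFP- DCs.

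The gene of myosin light chain kinase was far higher in the MC903 capture. Mylk was at 6.99 CPM (21 UMIs) in untreated BFP+, 9.62 CPM (161 UMIs) in untreated BFP-, 54.0 CPM (697 UMIs) in MC903 BFP+ and 57.1 CPM (1539 UMIs) in MC903 BFP- DCs. Both MC903 pools were far above both untreated pools, and the reporter populations of a capture lay close to each other. The MC903 pool was higher by 2.95 on the log2 scale (2.33 to 3.65) among BFP+ and by 2.57 (2.33 to 2.81) among BFP- DCs. BFP+ minus BFP- was -0.46 (-1.19 to 0.20) untreated and -0.08 (-0.21 to 0.05) under MC903. Over 13 other settings the BFP+ difference between captures ranged from 2.59 to 3.14 and the BFP- one from 2.44 to 3.09.

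Mylk was found in more cells, not only at more UMIs in a few. After each cell was thinned to 2000 UMIs, leaving 411, 3589, 1193 and 2675 DCs of the 4 pools, a Mylk UMI was present in 1.46% (0.54 to 3.15, exact Clopper-Pearson) of untreated BFP+, 1.56% (1.18 to 2.02) of untreated BFP-, 7.96% (6.49 to 9.65) of MC903 BFP+ and 8.04% (7.03 to 9.13) of MC903 BFP- DCs. Without thinning the shares were 3.69%, 2.97%, 25.3% and 23.3%, a wider gap that includes the deeper MC903 cells. T cells that held no UMI of the MHC class II gene H2-Aa, with median depths of 3806.5 and 4595 UMIs, served as the background: Mylk was seen in 0 of 110 thinned untreated T cells, which allows a share of up to 3.30%, and in 1.66% of 181 MC903 T cells. The untreated DC shares are within that limit, whereas the MC903 shares are above the 1.66%. The 1% of DCs with most Mylk held 13.2% of its UMIs in MC903 BFP+ and 17.7% in MC903 BFP-, and no DC of the 4 pools held more than 14 of them.

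Since Mylk is also a gene of smooth muscle, markers of such cells were read in the same pools. Acta2, Tagln, Myh11, Des, Cnn1 and Lmod1 together stood at 4.99 and 4.90 CPM in the untreated and at 4.57 and 5.6 CPM in the MC903 pools, with Cnn1 at 0 in all 4. A list of 9 stromal, epithelial, endothelial and salivary genes did move with treatment, from 4.66 and 5.55 to 34.7 and 36.1 CPM, with 5, 0, 2 and 1 of its genes at 0. Among DCs with 0 UMIs of both lists Mylk was at 6.07, 9.59, 53.6 and 56.5 CPM in the 4 pools, which gives log2 differences of 3.14 among BFP+ and 2.56 among BFP- DCs. That selection was chosen after seeing the data.

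Myo10, the filopodial motor, was scarce everywhere. Its level was 10.3 CPM (31 UMIs) in untreated BFP+, 12.5 CPM (210) in untreated BFP-, 17.1 CPM (221) in MC903 BFP+ and 19.0 CPM (511) in MC903 BFP- DCs. The MC903 pools were again the higher ones, by 0.73 (0.18 to 1.32) and 0.60 (0.36 to 0.83) on the log2 scale, sizes past 1.5-fold in genes under the 20 CPM needed for a call. In thinned cells its shares were 1.95%, 1.95%, 2.35% and 3.33% in the 4 pools. The T cell background was 3.64% untreated, above the untreated DC shares, and 1.10% under MC903, below the MC903 DC shares. As this background rests on few T cells and its values were unlike in the captures, no difference in cells with Myo10 is read from the shares.

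Evl, the filament-lengthening protein, was the one member far lower under MC903. Its level was 7.66 CPM (23 UMIs) in untreated BFP+, 17.7 CPM (297) in untreated BFP-, 1.78 CPM (23) in MC903 BFP+ and 3.49 CPM (94) in MC903 BFP- DCs. Both MC903 pools were below both untreated pools, by -2.10 (-3.00 to -1.20) and -2.35 (-2.70 to -2.01) on the log2 scale, and the BFP+ pool was the lower one in each capture, by -1.21 (-1.89 to -0.60) and -0.97 (-1.69 to -0.30). Over 13 other settings the difference between captures ranged from -2.99 (HTODemux) to -1.01 (no lineage gate) among BFP+ and from -2.75 (untyped Ccr7+ DCs only) to -1.22 (no lineage gate) among BFP- DCs. No pool reached 20 CPM, so none of these counts as a call. After thinning, Evl was seen in 1.22% (0.40 to 2.82), 3.85% (3.24 to 4.53), 0.50% (0.18 to 1.09) and 0.75% (0.46 to 1.15) of DCs.

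Lymphocyte transcripts in the DC pools were, like Evl, lower under MC903 than untreated in both populations, and untreated lower in BFP+ than in BFP- DCs; under MC903 they were slightly higher in the BFP+ pool, where Evl was lower. The T cells without H2-Aa held Evl at 128 CPM untreated and 179 CPM under MC903, far above any DC pool, and a list of 8 T and NK cell genes summed to 30.6, 69.6, 9.6 and 9.3 CPM in the 4 DC pools, with none of the 8 at 0. A list of 8 B cell genes summed to 24.0, 67.1, 15.2 and 12.8 CPM. Untreated DCs with 0, 1 and 2 T-list UMIs had Evl at 14.3, 24.4 and 38.1 CPM, whereas MC903 DCs had 2.80, 3.37 and 6.74 CPM. DCs with no UMI of either list had Evl at 6.49 and 14.3 CPM untreated against 1.70 and 3.35 CPM under MC903. Their median depths were 4576 and 2645.5 UMIs untreated and 9929 and 9116.5 UMIs under MC903. Cells with 0 list UMIs are thus less strictly selected in the untreated capture, and the T-list bins also differ in depth between captures. Mylk was at 8.91, 9.01 and 10.1 CPM over the same 3 untreated bins and at 55.5, 55.7 and 69.1 CPM over those of MC903. The part of lymphocyte RNA in the Evl levels of DCs beyond this was not tested.

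**Figure D1:**
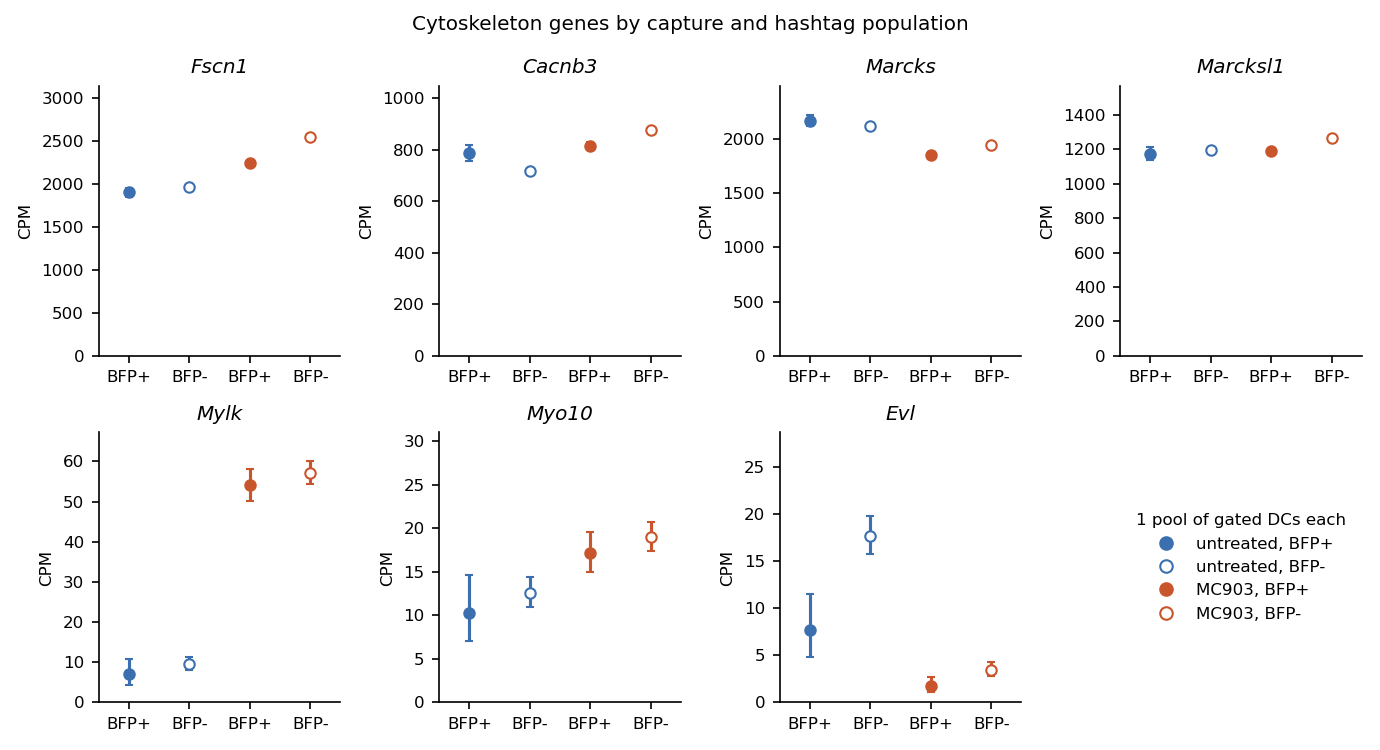
Level of each of the 7 genes in the 4 pools of gated DCs, in CPM of UMIs, with 1 panel per gene and its own axis from 0. Points are pool values and bars are exact Poisson 95% intervals for counting error. Mylk runs from 6.99 and 9.62 CPM untreated to 54.0 and 57.1 CPM under MC903, and Evl from 7.66 and 17.7 to 1.78 and 3.49 CPM.

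**Figure D2:**
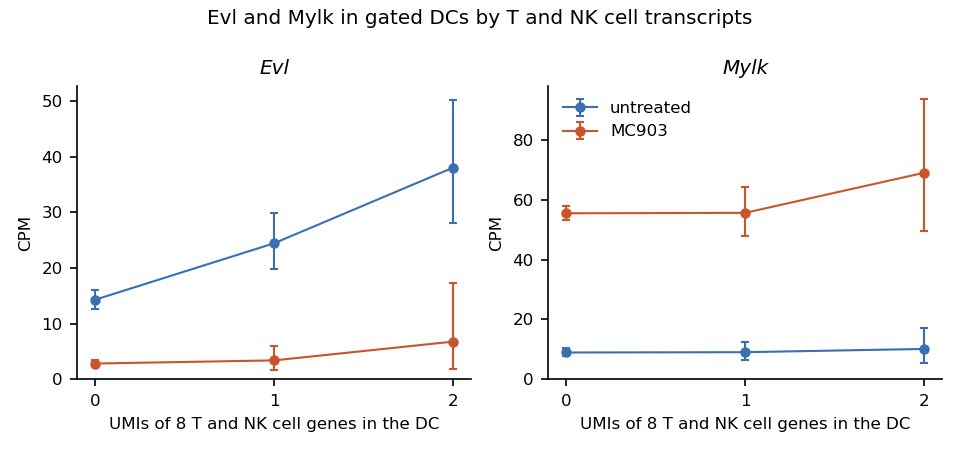
Evl level (CPM) in gated DCs with 0, 1 or 2 UMIs of the 8 T and NK cell genes, in each capture, with 95% counting intervals. Evl climbs from 14.3 to 38.1 CPM across the untreated bins and lies at 2.80 to 6.74 CPM across those of MC903.

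Few of the 7 were called, and only members with 20 CPM in the higher set could be: 4 between untreated reporter populations and 5 in each of the other 3 comparisons. The shares beside the counts are over such genes only. Between BFP+ and BFP- DCs 0 of 4 and 0 of 5 members were called, where 3.24% of 5036 tested genes were called higher and 4.17% lower untreated, and 1.25% and 1.61% of 4789 under MC903. Between the captures 1 of 5 members, Mylk, was called higher in each population and 0 lower, where 3.06% were higher and 4.34% lower among BFP+ DCs (4905 genes tested) and 4.8% and 5.52% among BFP- DCs (5019 genes). The 4 comparisons share pools, so they are not separate evidence. The median log2 difference over all tested genes lay between -0.04 and -0.02 in the 4 comparisons. TMM scaling shifts the medians of the treatment comparisons from -0.04 to 0.07 and from -0.03 to 0.09, and the share of calls that are higher from 41.3% to 64.9% among BFP+ and from 46.5% to 65.4% among BFP- DCs. In the reporter comparisons it goes from 43.7% to 56.4% untreated and from 43.8% to 53.2% under MC903.

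**Figure D3:**
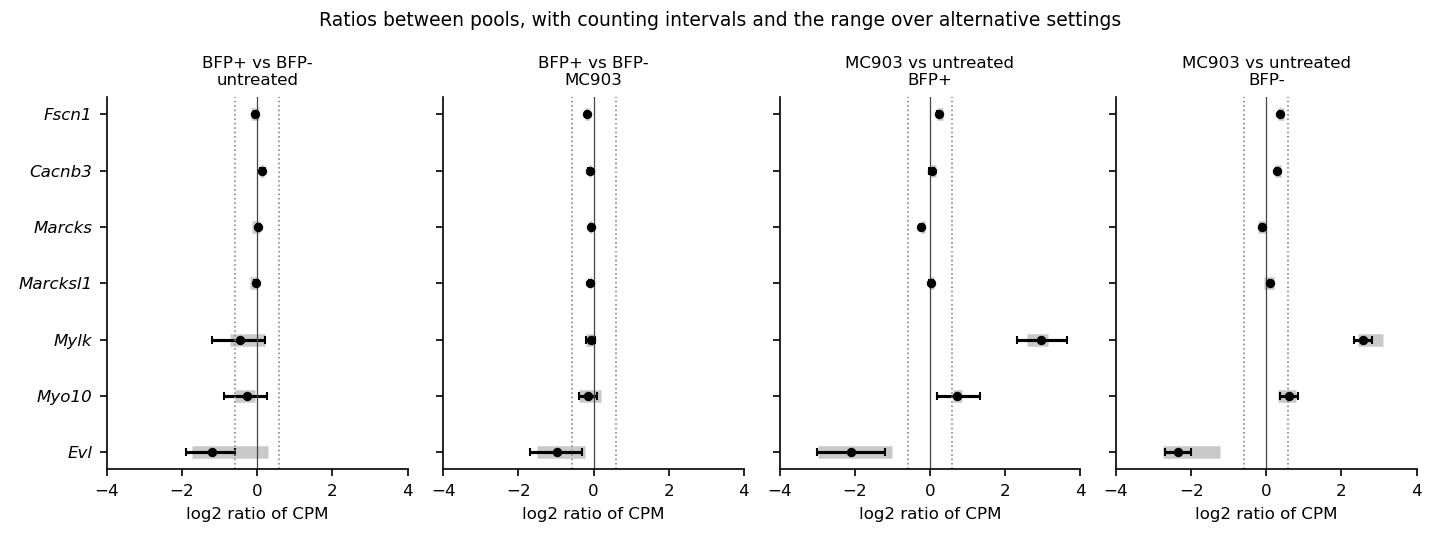
Log2 differences of the 7 genes in the 4 comparisons (BFP+ minus BFP- in each capture, MC903 minus untreated in each population), with 95% counting intervals and lines at 1.5-fold. Fscn1, Cacnb3, Marcks and Marcksl1 lie within the lines throughout, Mylk at 2.95 and 2.57 and Evl at -2.10 and -2.35 between captures.

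The treatment differences of Mylk and Evl kept their direction under the other hashtag calls, but some untreated reporter differences did not. With the HTODemux method, which placed 1894 untreated DCs in the BFP+ and 735 in the BFP- pool, Mylk was at 7.73 and 9.25 CPM and Evl at 15.2 and 12.5 CPM, so that the Evl reporter difference turned to 0.28. With a Gaussian mixture (811 and 701 DCs) Evl was at 11.8 and 14.4 CPM and Mylk at 6.41 and 9.78 CPM. Fscn1 was at 1992 and 1918 CPM with HTODemux, the opposite order to that above, and Cacnb3 at 781 and 715 CPM, in the same order. Over all 13 other settings Cacnb3 stayed between 0.07 and 0.19 untreated and between -0.11 and -0.07 under MC903. Marcks, at 0.03 (-0.01 to 0.07) with the calls used above, went to -0.13 with HTODemux and -0.08 with the mixture. The BFP transcript in the untreated BFP- pool was at 6.57 CPM with the calls used above, 1.62 CPM with HTODemux and 1.34 CPM with the mixture. In the untreated BFP+ pool it was at 83.2, 69.3 and 83.3 CPM in the same order. The direction of the untreated reporter difference of Evl, Fscn1 and Marcks therefore depends on the call. The calls used above placed 461 BFP+ and 4418 BFP- untreated DCs, from 5000 and 7000 sorted cells. Median depth in that BFP- pool was 2615.5 UMIs, against 8219 UMIs with HTODemux and 6618 UMIs with the mixture. Which call is right, and whether the BFP- pool used above holds BFP+ cells, was not tested.

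Conventional DCs fall into cDC1, which cross-present antigen, and cDC2, and DC types were set here by a list of markers for each: 580 untreated and 350 MC903 DCs were Langerhans-like, 359 and 598 mature cDC1-like, 74 and 39 less mature cDC1-like, and 226 and 38 cDC2-like. Most DCs, 4829 and 2841, had a Ccr7 UMI but reached no type gate, while 146 and 120 reached several and 294 and 24 reached none and had no Ccr7 UMI. The Langerhans gate was led by Mfge8 (999 against 128 CPM in other untreated DCs), with Epcam at 105 against 17.6 CPM and Cd207 at 45.6 against 5.9 CPM. Clec4a4, of the cDC2 list, was at 0 in the untreated cDC2-like cells. A type is compared with all other gated DCs of its capture, and with 1 pool each these are differences between sets of cells, not tested over mice.

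Langerhans-like DCs, named after the DCs of the epidermis, had the highest Fscn1 of all types in both captures, and the highest Mylk in the MC903 capture. Fscn1 was at 2310 CPM (2257 to 2363) in untreated and 3004 CPM (2948 to 3060) in MC903 Langerhans-like cells, above mature cDC1-like cells (2128 and 2674 CPM) and untyped Ccr7+ cells (1952 and 2369 CPM), with no overlap of the intervals. The untreated order depends on the filter: with at most 5% mitochondrial UMIs, Fscn1 was at 2089 CPM in Langerhans-like and 2109 CPM in mature cDC1-like cells. Mylk was at 16.9 CPM (53 UMIs) untreated and 116 CPM (421 UMIs) under MC903, against 7.82 and 49.96 CPM in the other DCs. Myo10 was at 23.6 and 37.6 CPM against 10.35 and 16.5 CPM, and the untreated Mylk and both Myo10 intervals overlapped those of the next type in rank. Of the members with 20 CPM in either set, 1 of 5 was called higher untreated (Myo10, log2 difference 1.19, 0.79 to 1.58), where 3.11% of genes were, and 2 of 6 under MC903 (Mylk 1.21, 1.05 to 1.36; Myo10 1.19, 0.91 to 1.45), where 2.18% were. None was called lower, against 2.77% and 1.93% of genes. The mean of the cells' own CPM gave 0 called untreated. Fscn1 differed by 0.27 and 0.32, under 1.5-fold. In thinned cells 16.3% (12.6 to 20.6) of 349 MC903 Langerhans-like DCs held Mylk, against 7.32% (6.38 to 8.34) of 2802 untyped Ccr7+ DCs.

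Mature cDC1-like DCs had 0 of 4 members called untreated and 0 of 5 under MC903, where 2.61% of genes were higher and 3.07% lower untreated and 4.24% and 2.05% under MC903. They had the highest Marcksl1, at 1291 CPM untreated (1195 in untyped Ccr7+ cells) and 1303 CPM under MC903, where the interval overlaps that of untyped Ccr7+ cells (1277 CPM). Their Marcks was lower than in other DCs, by -0.16 and -0.21 on the log2 scale. Their untreated Mylk was past 1.5-fold but under 20 CPM, at 13.9 against 8.47 CPM (0.71, 0.12 to 1.26). Mylk was at 39.7 CPM in MC903 mature cDC1-like cells against 59.1 CPM in other DCs, a difference of -0.57 (-0.76 to -0.39) just under 1.5-fold. Within these cells it was at 63.5 CPM in 92 BFP+ and 35.3 CPM in 490 BFP- DCs, a log2 difference of 0.85 (0.45 to 1.23), whereas untyped Ccr7+ DCs had 51.8 and 54.2 CPM (-0.07, -0.22 to 0.09).

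The less mature cDC1-like and the cDC2-like DCs shared low levels of the abundant members. In untreated less mature cDC1-like cells Fscn1 was at 936 CPM, Cacnb3 at 320 CPM, Marcks at 1275 CPM and Marcksl1 at 673 CPM, all 4 called lower than in other DCs (log2 differences -1.08, -1.20, -0.72 and -0.80). In untreated cDC2-like cells Fscn1 was at 1076 CPM, Cacnb3 at 393 CPM and Marcks at 1402 CPM, called lower by -0.89, -0.92 and -0.59, with Marcksl1 at 830 CPM (-0.51) short of the call. Under MC903 the same 4 genes were called lower in cDC2-like cells (-0.96, -1.03, -0.74 and -0.76), and Cacnb3, Marcks and Marcksl1 in less mature cDC1-like cells (-0.93, -0.62 and -0.62), where Fscn1 was at 1937 CPM (-0.35). These cells differ from other DCs in many genes: 22.5% and 17% of genes were lower in less mature cDC1-like cells (16.5% and 15.8% higher), untreated and MC903, and 15.5% and 20.9% in cDC2-like cells (17.6% and 20.6% higher). Ccr7 itself was lower, by -1.26 and -0.81 in less mature cDC1-like and by -1.18 and -1.46 in cDC2-like cells. Of the members with 20 CPM in either set, 4 of 5 and 3 of 6 were lower in less mature cDC1-like and 3 of 4 and 4 of 5 in cDC2-like cells, above those shares of all genes, with only 39 and 38 cells of these types under MC903.

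Evl was the exception in less mature cDC1-like cells. It was at 65.7 CPM (24 UMIs in 74 cells) against 16.4 CPM in other untreated DCs, called higher by 2.00 (1.34 to 2.59), and at 17.6 CPM (11 UMIs) against 2.68 CPM under MC903, where it missed 20 CPM. The 45 untreated cells of the type with no UMI of the T and B lists had it at 70.8 CPM (19 UMIs). Evl is 1 of 5 members here, where 16.5% of all genes were called higher. Untreated DCs with no type and no Ccr7 UMI had Evl at 33.9 CPM, and the levels of the other types and of untyped Ccr7+ DCs, 12.3 to 17.1 CPM, had intervals that overlapped between neighbours in rank.

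**Figure D4:**
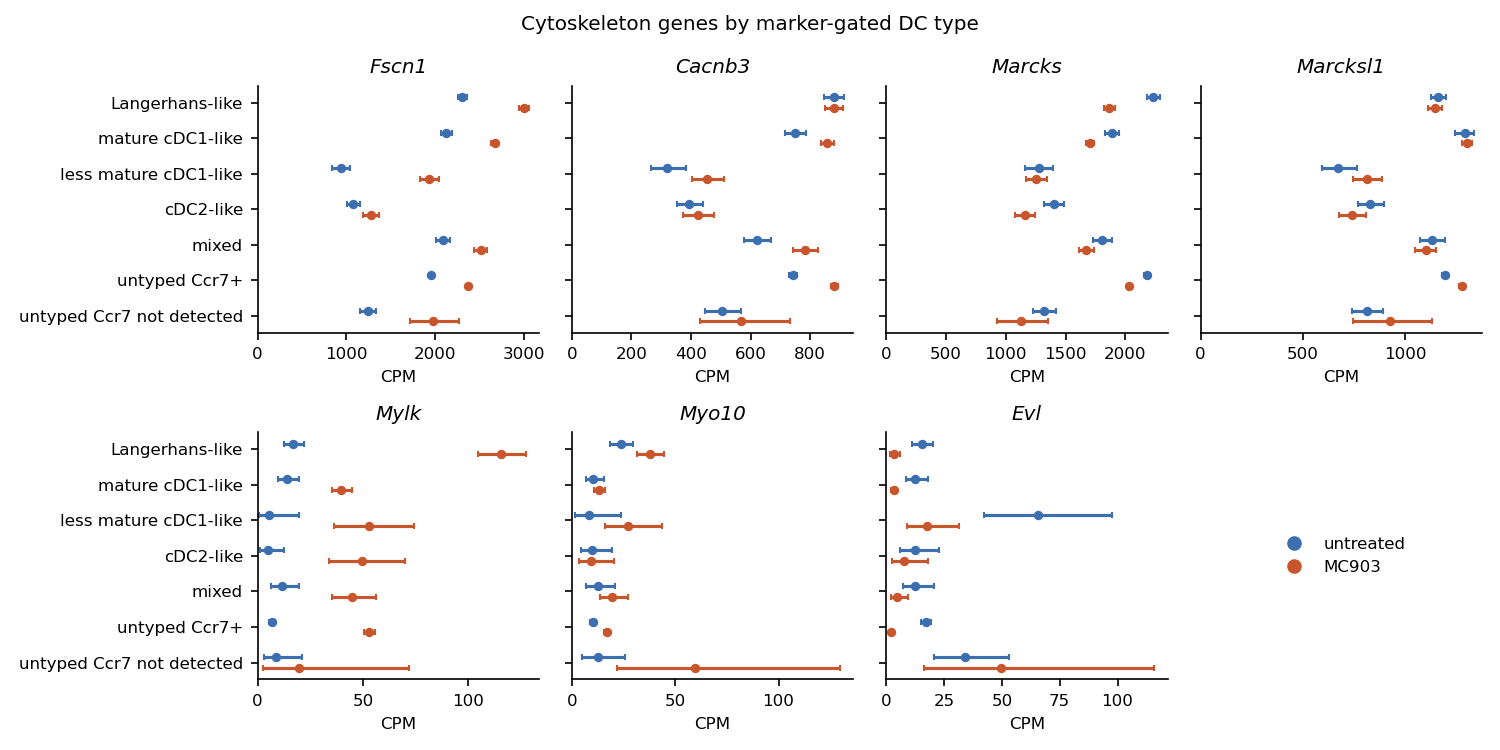
Level (CPM) of each gene by DC type in the untreated and the MC903 capture, with exact Poisson 95% intervals; each panel has its own axis. Langerhans-like DCs are highest for Fscn1 (2310 and 3004 CPM) and for Mylk (16.9 and 116 CPM), and cDC2-like and less mature cDC1-like DCs are low for Cacnb3 (320 to 455 CPM).

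The treatment difference of Mylk was present in each type with enough UMIs to read. MC903 minus untreated was 2.77 (2.36 to 3.21) in Langerhans-like, 1.52 (0.99 to 2.09) in mature cDC1-like and 2.96 (2.68 to 3.25) in untyped Ccr7+ DCs, so it was smaller in mature cDC1-like cells, with intervals that do not overlap the other ones. In less mature cDC1-like and cDC2-like cells it was 3.27 and 3.33, but on 2 and 4 untreated UMIs. Fscn1 differed by 0.38, 0.33 and 0.28 in Langerhans-like, mature cDC1-like and untyped Ccr7+ DCs, and by 1.05 (0.88 to 1.23) in less mature cDC1-like cells, from 936 to 1937 CPM. With a gate of 5 UMIs, Fscn1 in less mature cDC1-like cells was at 542 CPM untreated (37 cells) and 1220 CPM under MC903 (17 cells). Evl was lower by -2.22 (-3.27 to -1.28), -1.98 (-2.84 to -1.14) and -3.06 (-3.50 to -2.64) in Langerhans-like, mature cDC1-like and untyped Ccr7+ DCs, and by -1.90 (-3.08 to -0.81) in less mature cDC1-like cells. In cDC2-like cells it was at -0.67 (-2.57 to 1.01) and in untyped DCs with no Ccr7 UMI at 0.55 (-1.23 to 2.02), each on 5 MC903 UMIs. The differences of all 3 genes between the captures were thus also present within the Langerhans-like, mature cDC1-like and untyped Ccr7+ DCs. The type gate was 3 UMIs in both captures, at median DC depths of 2614 UMIs untreated and 9711 UMIs under MC903. Cells of a type may therefore be unlike between captures: Xcr1 in less mature cDC1-like cells was at 339 CPM untreated and 65.6 CPM under MC903. Whether the Mylk difference itself differs between types was not tested.

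Levels were also set against Ccr7, read as UMIs in DCs thinned to 2000 UMIs, over bins chosen after seeing the data (0, 1 to 2, 3 to 4, 5 to 6, 7 to 9, and 10 or more). Marcks was higher with more Ccr7 in both captures, at 1447, 1768, 1930, 2154, 2367 and 2769 CPM over the untreated bins and 1594, 1748, 1845, 1879, 2233 and 2706 CPM over the MC903 bins. Fscn1 followed Ccr7 in the untreated capture only up to 5 to 6 UMIs, from 1382 CPM at 0 to 2086 CPM, and stayed at 2094 and 2088 CPM beyond. Under MC903 Fscn1 was highest at 1 to 2 Ccr7 UMIs (2626 CPM) and lowest at 10 or more (2070 CPM). The 2 captures thus met at nearly the same Fscn1 level in the DCs with most Ccr7, and lay widest apart in those with none, at 1382 and 2497 CPM.

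Mylk under MC903 was also lower in the DCs with most Ccr7. It was at 62.7, 70.2, 59.7, 51.5, 32.2 and 22.8 CPM over the 6 MC903 bins, against 3.2 to 11.3 CPM untreated. Myo10 under MC903 went from 24.8 CPM at 0 Ccr7 UMIs to 8.1 CPM at 10 or more. Marcksl1 was at 884 CPM at 0 and 1338 CPM at 10 or more untreated, and between 1197 and 1294 CPM in all bins of MC903. Cacnb3 was lowest at 0 Ccr7 UMIs untreated (552 CPM, 712 to 754 CPM in the other bins) and spanned 860 to 949 CPM under MC903. In the fixed bins of 0, 1, 2 and 3 or more UMIs, Fscn1 was at 1382, 1673, 1845 and 2035 CPM untreated and 2497, 2623, 2630 and 2243 CPM under MC903. Cells of 1 capture share their library, and a thinned cell with more Ccr7 has fewer UMIs for all other genes.

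**Figure D5:**
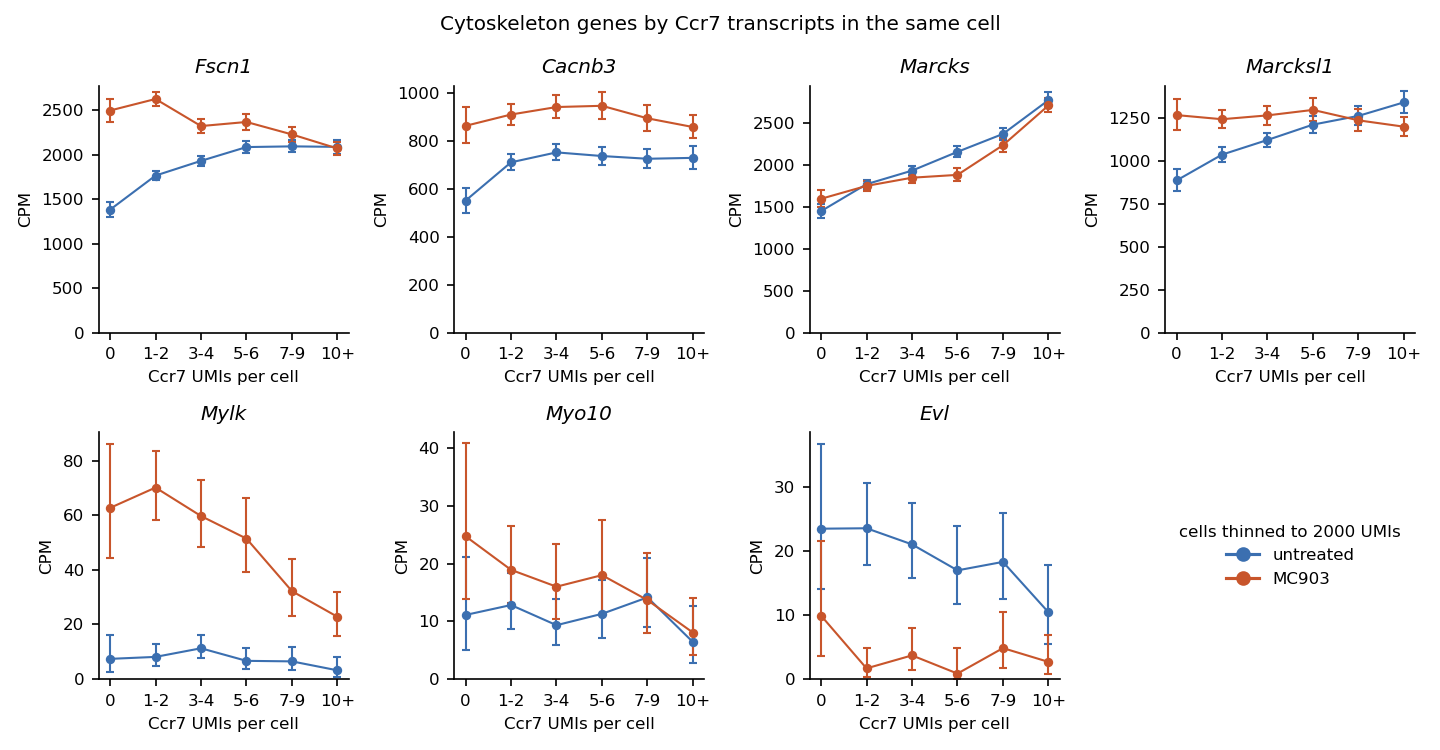
Level (CPM) of each member in DCs grouped by their Ccr7 UMIs after thinning to 2000 UMIs, for each capture, with 95% counting intervals; the bins hold 303 to 1285 DCs. Marcks climbs from 1447 to 2769 CPM untreated and from 1594 to 2706 CPM under MC903, while Mylk under MC903 goes from 62.7 to 22.8 CPM.

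Overlapping gates on a few genes, at 2 or more UMIs, show where the members were high among the DCs; such gates take deeper cells, with MC903 medians of 10010 to 13726 UMIs. The 423 MC903 DCs with Thy1 or Dll4 had Mylk at 102 CPM and Fscn1 at 2932 CPM, with Ccr7 at 1721 CPM. The 1547 with Efnb2 or Slamf1 had Mylk at 45.3 CPM, Marcks at 2336 CPM and Ccr7 at 3539 CPM. The 1213 with Ccl17, a chemokine of migratory DCs, had Fscn1 at 3053 CPM and Mylk at 78.4 CPM, and in the untreated capture the 1034 such DCs had Fscn1 at 2537 CPM and Mylk at 12.2 CPM. The 95 cycling MC903 DCs had the highest Fscn1 (3429 CPM) and Marcksl1 (2085 CPM) of these gates, with Mylk at 45.4 CPM. In each of these gates present in both captures, Mylk was lower untreated, at 2.0 to 21 CPM. Fscn1 and Mylk were thus high in the Thy1 or Dll4 and the Ccl17 gates, and Marcks and Ccr7 in the Efnb2 or Slamf1 gate.

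The members were set against each other over single cells and over groups of cells. Over 5304 untreated and 3962 MC903 thinned DCs the highest coefficients were those of Fscn1 with Marcksl1 (Pearson 0.301 and 0.268, Spearman 0.277 and 0.224) and of Marcks with Ccr7 (Pearson 0.277 in both, Spearman 0.268 and 0.247); the first led in the untreated and the second in the MC903 capture. Marcks with Marcksl1, the paralogues, gave 0.210 and 0.126. Fscn1 with Ccr7 was 0.105 untreated and -0.090 under MC903. Over groups of DCs formed by type and population (8 untreated, 6 MC903), the 4 abundant members Fscn1, Cacnb3, Marcks and Marcksl1 went together untreated, with pairwise Pearson values of 0.90 to 0.97. Under MC903 the same pairs spanned 0.04 (Fscn1 with Marcksl1) to 0.81 (Cacnb3 with Marcks), with Fscn1 and Cacnb3 at 0.54. The untreated groups include less mature cDC1-like, cDC2-like and untyped DCs without a Ccr7 UMI, which formed no group under MC903. The values of the captures therefore cover unlike groups and cannot be set against each other. Mylk with Myo10 gave 0.65 and 0.90. Cells of a capture share library and depth, and the groups share cells' background RNA, so these are descriptions; correlations this weak in sparse counts are not findings.

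The genes whose levels over those groups were most like a member's, by the smaller of its 2 Pearson correlations among 4234 genes, were led by N4bp1 for Fscn1 (0.939 untreated, 0.955 MC903), before Rnf19a, Plxnc1, H2-M2 and Basp1. Sav1 led for Cacnb3 (0.965, 0.952), before Ccng1, Arhgap31, Lrrk1 and Rassf4. Rasa2 led for Marcks (0.969, 0.954), before Zfp36l1, Mt2, Spred1 and Tpm1, and Arhgap30 for Marcksl1 (0.932, 0.926), before Rab8b, Tnfrsf11a, Miip and Sepsecs. For Mylk the leading genes were Chd6 (0.826, 0.946) and the small GTPase gene Rhob (0.825, 0.989), before Ktn1, Usp34 and Ccdc82. Blvrb led for Myo10 (0.851, 0.925), before Zfp638, Nabp2, Pkn2 and Fbxo22, and Drg1 for Evl (0.914, 0.953), before Paxbp1, Nedd8, Furin and Fam50a. With 8 and 6 points and 4234 genes searched, high values are found for any gene.

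Of the other genes of the cell skeleton, 174 in 8 lists by role, several were higher in the MC903 capture, and more so among BFP- DCs. In the actomyosin list, to which Mylk belongs, 1 of 15 tested genes (Mylk) was higher among BFP+ DCs (median log2 difference 0.18) and 5 of 15 among BFP- DCs (median 0.42), with 0 lower in both. The other 4 were Myl6, a myosin light chain (1991 against 1245 CPM, 0.68), Myl12a, a regulatory light chain of non-muscle myosin II (533 against 282 CPM, 0.92), the tropomyosin gene Tpm4, and Cnn2, a calponin (730 against 398 CPM, 0.88). Among BFP+ DCs Myl6 and Myl12a differed by 0.54 each and Cnn2 by 0.48, under the call. In the actin assembly list 6 of 28 were higher among BFP+ (median 0.29) and 6 of 27 among BFP- DCs (median 0.41), with 0 lower. They included the capping protein gene Capg (215 against 114 CPM, 0.92, and 155 against 77.8 CPM, 0.997), Nckap1l of the WAVE complex (0.69 and 0.82) and the filamin gene Flna (0.64 and 0.72).

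The list of Fscn1, Myo10 and Evl, actin bundling and filopodia, had 0 of 11 tested genes called in any of the 4 comparisons, with medians of -0.13 and 0.03 between captures. By the smaller of the 2 differences its nearest was Vasp, a relative of Evl, at 151 against 105 CPM (0.53) and 149 against 105 CPM (0.50). Diaph1 differed by 0.29 among BFP+ and by 0.55 among BFP- DCs. In the calcium channel list of Cacnb3, Orai1, the pore of store-operated calcium entry, was higher under MC903 in both populations (126 against 72.9 CPM, 0.79, and 111 against 46.9 CPM, 1.25); 2 of 6 tested genes were higher among BFP+ and 1 of 6 among BFP- DCs, with 0 lower. In the MARCKS and PIP2 list 2 of 13 were higher among BFP+ DCs, Add1 and Calm3, with 0 lower. Among BFP- DCs 4 of 14 were higher and 2 lower, the lower ones being Prkcb and Inpp5d. The calmodulin gene Calm3 was at 393 against 259 CPM (0.60) and 339 against 213 CPM (0.67).

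The adhesion and podosome list had Zyx, the zyxin gene of focal adhesions, higher in both (0.68 and 0.70), as 1 of 13 and 1 of 15, and the integrin genes Itgb2 and Itgax lower among BFP- DCs. In the microtubule list 2 of 16 were higher in each, Tubb2b (322 against 145 CPM, 1.15, and 191 against 98.1 CPM, 0.96) and Tuba1a (0.61 and 0.79), while Tubb6 was lower in both (-1.66 and -1.03) and Stmn1 among BFP- DCs. Tubb2b was also the 1 of 14 microtubule genes higher in BFP+ than BFP- DCs under MC903 (0.75). Between the reporter populations the actomyosin list had 0 of 14 and 0 of 15 called, and the actin assembly list 1 of 28 (Was, higher untreated) and 0 of 28.

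For scale, a list of 18 DC maturation genes had 2 higher among BFP+ and 6 higher among BFP- DCs in the MC903 capture, with 0 lower and medians of 0.18 and 0.34. Over all tested genes 3.06% and 4.8% were higher. The costimulatory gene Cd86 was at 591 against 236 CPM (1.32) and 471 against 132 CPM (1.83), and Cd200 differed by 0.91 and 1.46. Other genes of the list were lower under MC903, short of the call: Birc3 (-0.47 and -0.43), Cd83 (-0.26 and -0.39) and Cd40 (-0.21 and -0.19). Between the captures, then, the log2 difference of Mylk, at 2.95 and 2.57, was wider than that of each of these named genes, and those of Fscn1, at 0.24 and 0.37, were narrower than those of Cd86 and Cd200.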

How the data were processed

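The deposited files hold raw UMI counts per gene and barcode and raw hashtag counts, as the authors made them. The file headers name Cell Ranger 3.1.0, and the submitters' processing notes name build GRCm38; later filtering of barcodes is not stated. The 2 matrices hold 33525154 (untreated) and 57148072 (MC903) UMIs, and 21 barcode sequences occur in both. Barcodes needed 500 genes and at most 10% mitochondrial UMIs. A barcode took the population with at least 80% of at least 10 hashtag counts; HTODemux (Seurat 5.3.0) and a Gaussian mixture (scikit-learn 1.9.0) were alternatives. DCs needed 2 UMIs of DC genes and under 3 of any other lineage's list, and types 3 UMIs of their own list only. Counts were summed over the DCs of a pool and given as CPM with exact Poisson intervals, log2 differences with exact conditional binomial intervals (scipy 1.17.1). A gene was called at 20 CPM in the higher set and a 1.5-fold difference. TMM factors came from edgeR 4.0.16 (R 4.3.3); no edgeR test was run. Shares use cells thinned to 2000 UMIs with a fixed seed. Scrublet (scanpy 1.11.5) marked 0 barcodes in either capture, so it has not worked and doublets were not removed by it; the top 5% of scores were left out as an alternative. Gene positions are from the GENCODE annotation of GRCm38. The calling rule was tried on simulated counts, with 200 genes set 2-fold apart. It recovered 99.5% of them in BFP+ against BFP- untreated (4972 genes simulated) and 100% in the same contrast under MC903 (4735 genes). In the treatment contrasts it recovered 99.5% among BFP+ (4801 genes) and 100% among BFP- DCs (4866 genes). The simulated counts were Poisson draws around the mean of the pools, with no spread between cells, mice, hashtag calls or captures. High recovery at 2-fold under a 1.5-fold rule was thus set by design, and it covers counting error only. Named genes were the 7 members, the 5 genes most like each by the smaller of their 2 correlations of log2(CPM + 1), and, in each list, up to 3 genes each way by the smaller of their 2 log2 differences; other list genes are named only as the genes of a count, after their values were seen. Some list results are not reported here. The members and lists were chosen with earlier results of these data known.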

Additional observations from a re-analysis of the deposited data

Results flagged for a closer look

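The reporter difference of Cacnb3 pointed in opposite directions in the captures: BFP+ minus BFP- was 0.13 on the log2 scale untreated and -0.11 under MC903, 0.24 apart, with 1 pool per population. The difference between the captures was not tested, since there are no replicate pools. The untreated value rests on hashtag calls of doubtful quality, and it remained above 0 with the HTODemux and mixture calls.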

How the results depend on the processing

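Of 176 counts of called genes or members under an alternative, 152 were within 1.5 times of the reported count and 24 were not; of 767 values of single members, 577 lay within the reported interval, 187 outside it with the same sign or on a difference under 1.5-fold, and 3 turned direction. The 3 were Evl between untreated reporter populations with HTODemux (0.28), and, with type gates of 2 UMIs on thinned cells, Mylk in untreated mature cDC1-like (-0.36) and Myo10 in MC903 cDC2-like DCs (0.066). A floor of 5 CPM gave 1202, 411, 1190 and 1350 genes apart (BFP+ against BFP- untreated and MC903, then MC903 against untreated in BFP+ and BFP-), against 373, 137, 363 and 518 reported; keeping all genes with a UMI gave 5581, 4276, 5145 and 5978, and a 2-fold rule 99, 36, 113 and 178. Untyped Ccr7+ DCs alone gave 83 genes between MC903 reporter populations. Called members went from 0 to 1 between untreated reporter populations with the mean of the cells' own CPM, from 1 to 2 between captures among BFP+ DCs without the lineage gate, and from 1 to 2 among BFP- DCs with either setting. In Langerhans-like untreated DCs they went from 1 to 0 (mean of the cells' own CPM) or 2 (Epcam and Cd207 alone), in MC903 mature cDC1-like DCs from 0 to 1 with gates of 2 UMIs on thinned cells or 5 UMIs, without lymphocyte UMIs, or with salivary genes not gated, and in MC903 less mature cDC1-like DCs from 3 to 6 (5 UMIs). The causes were not tested. The Epcam and Cd207, lymphocyte, stromal, salivary, Scrublet score and 95% hashtag alternatives were chosen after seeing the data. The Scrublet alternative planned could not be run, as it marked no barcode. No paired analysis was possible because each population is 1 pool. Depth limits Mylk, Myo10 and Evl in the untreated BFP+ pool to 21, 31 and 23 UMIs.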
